A study of Mus musculus with 12 samples.

Results

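The recombinase, surrogate light chain and early B-lineage genes were followed in single cells from the meninges of newborn mice, the tissue layers that enclose the brain. The 10 genes were Rag1, Rag2, Dntt, Vpreb1, Vpreb2, Vpreb3, Igll1, Il7r, Ebf1 and Pax5, each found by symbol as a single row of the 28694 gene rows of the count matrices. Their levels were read in B-lineage cells, taken as barcodes with at least 2 UMIs of Cd79a, which encodes a signalling chain of the B-cell receptor. These cells were ordered by the productive receptor chains assembled from the same barcode in the matching B-cell receptor library: no chain, a heavy chain (IGH) alone, or IGH paired with a kappa (IGK) or lambda (IGL) light chain. A UMI is a molecular tag that counts 1 captured transcript, and levels are given as UMIs per 1000000 UMIs of the summed cells (CPM). Counts of different genes are not per length, so levels are compared between cells and not between genes.

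All animals were C57Bl/6j pups at postnatal day 4, either left naive or exposed to hypoxia-ischemia (HI), which lowers blood flow and oxygen supply to the brain, and sampled 6 h later. Each of the 4 gene expression libraries (naive 1, naive 2, HI 1 and HI 2) pooled cells of 12 pups, 6 male and 6 female. No sham-operated pups were among the samples, so HI and the handling that came with it cannot be told apart. The 2 runs each held 1 HI and 1 naive library, and the labels do not say which numbers shared a run. P-values for HI against naive measure only the spread between these libraries. Those between chain classes measure only the spread left after a term per library. In each case the spread of a gene is estimated with help from all genes tested.

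As background, B cells are made in steps that these genes mark. The Rag1 and Rag2 proteins form the enzyme that cuts the immunoglobulin genes for V(D)J joining, and Dntt (terminal transferase) adds bases at the joins. IGH is joined first, and its protein reaches the cell surface with a surrogate light chain made of VpreB (Vpreb1, Vpreb2) and lambda5 (Igll1), before a true light chain is joined. Vpreb3 is a related small protein of the B lineage, Il7r encodes the receptor chain through which IL-7 supports early B cells, and the transcription factors Ebf1 and Pax5 set and hold B-lineage identity.

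B-lineage cells were few in every library, and most already held a complete receptor. The 4 libraries held 5122, 5945, 4212 and 6410 kept barcodes in the order naive 1, naive 2, HI 1 and HI 2, and 51986763 to 68543046 UMIs in all. Cd79a reached 2 UMIs in 305 kept barcodes, and 26 of these also held 10 or more UMIs of the macrophage genes C1qa, C1qb and C1qc and were set apart. The remaining 279 cells held a median of 34 Cd79a UMIs. Of these, 17 had no productive chain, 40 had IGH alone, 220 had paired chains and 2 had a light chain alone. All 286 kept barcodes with a productive chain were among the 305 barcodes with at least 2 Cd79a UMIs. No B-lineage barcode was shared between libraries, where 29 to 55 of all barcodes were shared between any pair of libraries.

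Of the other B-lineage markers, Cd79b was present in each class, while Ms4a1 (CD20), a marker of later B cells, was rare before light chains. Cd79b had a UMI in 94.1% of cells with no chain, 100% with IGH alone and 99.5% with paired chains. Ms4a1 had a UMI in 11.8%, 32.5% and 95.5% in the same order. Of 6 T-cell genes, Cd3e was at 0 in all 3 classes, and 1, 3 and 5 were detected with no chain, IGH alone and paired chains, with at most 74.6 CPM in sum in any library. All 4 listed NK cell genes and all 4 listed genes of type 2 innate lymphoid cells had 0 UMIs in all 3 classes. Not all lists were low. The 4 plasma cell genes summed to 1112 to 2030 CPM with no chain, 652 to 862 with IGH alone and 856 to 1004 with paired chains. The 5 genes of plasmacytoid dendritic cells summed to 204 to 242, 94.6 to 121 and 185 to 217 CPM, with Siglech and Klk1 at 0 in each class. A single cell with paired chains in HI 1 held 8750 UMIs of neutrophil genes, and a single cell with no chain in naive 2 held 162 of the 179 macrophage and microglia marker UMIs of that class. That cell in naive 2 had 2 Cd79a UMIs, no UMI of any of the 10 genes and no receptor contig.

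The classes were unevenly spread over the libraries. No chain was found in 6 of 82 cells of naive 1 (7.32%, 95% exact binomial interval 2.73 to 15.2%), 8 of 93 of naive 2 (8.60%, 3.79 to 16.2%), 0 of 28 of HI 1 (0%, 0 to 12.3%) and 3 of 76 of HI 2 (3.95%, 0.822 to 11.1%). IGH alone was found in 9 cells of naive 1 (10.98%, 5.14 to 19.8%), 19 of naive 2 (20.4%, 12.8 to 30.05%), 0 of HI 1 (0%, 0 to 12.3%) and 12 of HI 2 (15.8%, 8.43 to 26.0%). The intervals of all 4 libraries overlapped for cells with no chain, and for IGH alone those of naive 2 and HI 1 did not. Intervals and limits cover counting error only. The median cell held 9420 UMIs with no chain, 13148.5 with IGH alone and 8720.5 with paired chains, so shares of cells with a UMI are also given with each cell thinned to 3000 UMIs.

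The recombinase genes were read mainly in cells without a light chain. Rag2 counted 60 UMIs in 13 of 17 cells with no chain, 38 UMIs in 19 of 40 cells with IGH alone and 3 UMIs in 2 of 220 cells with paired chains. Its level was 209 CPM in naive 1, 318 in naive 2 and 159 in HI 2 in cells with no chain. It was 60.6, 38.2 and 84.6 CPM with IGH alone in the same libraries. With paired chains it was 4.23 CPM in naive 1 and 0 in naive 2, HI 1 and HI 2. The 3 classes did not overlap in any library, and cells with no chain stood highest in each. Summed over libraries, Rag2 was 225 times as high with no chain as with paired chains (95% counting interval 73.3 to 1121) and 49.1 times as high with IGH alone (15.6 to 249). Of the 42 Rag2 UMIs with no chain in naive 2, a single cell held 18 and another 15, a spread between cells that these intervals do not cover. Thinned to 3000 UMIs, 29.4% of cells with no chain, 12.5% with IGH alone and 0.455% with paired chains kept a Rag2 UMI.

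Rag1 counted 10 UMIs in 6 cells with no chain, 11 in 9 cells with IGH alone and 6 in 3 cells with paired chains. Naive 1 was the highest library in each class, at 94.9, 47.2 and 7.05 CPM. Naive 2 had 30.3, 6.37 and 0 CPM, HI 2 had 22.7, 9.96 and 1.43 CPM, and HI 1 had 0 CPM with paired chains. Within each library the order was the same as for Rag2, but the counts were too low to pass the filter of the test. The order rests on 4, 2 and 0 UMIs in naive 2 and on 1, 2 and 1 UMIs in HI 2, so it is a description only. Rag1 and Rag2 lie beside each other on chromosome 2 (GRCm38.p6, 101638252 to 101649532 and 101624712 to 101632528), with 5723 bases between the gene bodies. Both had a UMI in 5 of 17 cells with no chain, 8 of 40 with IGH alone and 1 of 220 with paired chains.

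Dntt was counted in 3 cells only, all with no chain and all in naive 2, at 2, 5 and 14 UMIs. The same 3 cells held 40, 29 and 56 UMIs of Igll1. Dntt had 0 UMIs in the 6 and 3 cells with no chain of naive 1 and HI 2, and 0 in all 40 cells with IGH alone and all 220 with paired chains. The 0 of 40 cells has an exact upper bound of 8.81% and the 0 of 220 cells one of 1.66%. With 21 UMIs in 1 library, Dntt gives no value to compare between libraries.

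The surrogate light chain genes were also read mainly in cells without a light chain. Igll1 had a UMI in 16 of 17 cells with no chain, with a median of 37 UMIs per cell, in 19 of 40 cells with IGH alone, and in 0 of 220 cells with paired chains. Its level with no chain was 4287 CPM in naive 1, 2134 in naive 2 and 2904 in HI 2, and with IGH alone 977, 659 and 214 CPM. Every library had it at 0 with paired chains. The 3 classes did not overlap across libraries. Igll1 was at least 2383 times as high with no chain, and at least 511 times as high with IGH alone, as in the paired class at 3 counts over that group, whose floor was 1.17 CPM. Vpreb1 had 492 UMIs in 16 cells with no chain, 244 UMIs in 19 cells with IGH alone and 3 UMIs in 3 cells with paired chains. Its level was 3699, 1422 and 2473 CPM with no chain and 701, 385 and 94.6 CPM with IGH alone (naive 1, naive 2, HI 2), and at most 2.51 CPM with paired chains. HI 2 was the lowest library for both genes with IGH alone, and naive 2 the lowest with no chain.

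Vpreb2 was counted in 12 of 17 cells with no chain (48 UMIs), 7 of 40 with IGH alone (43 UMIs) and 0 of 220 with paired chains. Its level was 379, 98.4 and 340 CPM with no chain and 87.6, 92.3 and 4.98 CPM with IGH alone in naive 1, naive 2 and HI 2. Here the classes came close in naive 2, at 98.4 against 92.3 CPM. Vpreb1 and Vpreb2 are near-identical copies, so how the upstream counting split reads between them is uncertain, and a count of either cannot be taken as that copy alone.

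Over the 106 bases before the annotated start of Vpreb1 (RefSeq, GRCm38.p6, chromosome 16, minus strand, 16869256 to 16869361), the stretch of Vpreb2 that aligns with them (plus strand, 17980315 to 17980420) differed at 2 bases and was 98.1% identical. That stretch lies within the annotated gene span of Vpreb2, so the letters are not printed.

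Igll1 and Vpreb1 neighbour each other on chromosome 16 with 4415 bases between the gene bodies, and both had a UMI in 16 of 17 cells with no chain, 16 of 40 with IGH alone and 0 of 220 with paired chains. Because both were read in the same cells, the 250 bases before each annotated start were searched on both strands for CCCNNGGG, the core of sequences bound by EBF1, for the E-box CANNTG and for the octamer ATTTGCAT. The window of Igll1 (chromosome 16, minus strand, 16863986 to 16864235, RefSeq, GRCm38.p6), printed here because the gene was read in nearly all cells with no chain and in none with paired chains, held 1 CCCNNGGG, in capitals, that begins 231 bases before the start:
Igll1: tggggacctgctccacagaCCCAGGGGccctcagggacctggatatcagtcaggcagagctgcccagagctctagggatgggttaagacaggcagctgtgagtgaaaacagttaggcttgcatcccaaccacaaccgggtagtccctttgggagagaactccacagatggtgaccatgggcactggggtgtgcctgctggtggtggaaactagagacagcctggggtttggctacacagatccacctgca
The window also held 3 E-boxes. Vpreb1 had 1 E-box and neither of the other motifs, and Vpreb3 had 5 E-boxes and 1 octamer 45 bases before its start, in a window that lies within its annotated gene span. Over all 32851 windows of the table, 11.8% held CCCNNGGG, 66.2% an E-box and 1.60% the octamer. A match is a description of letters and not of binding.

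**Figure D1:**
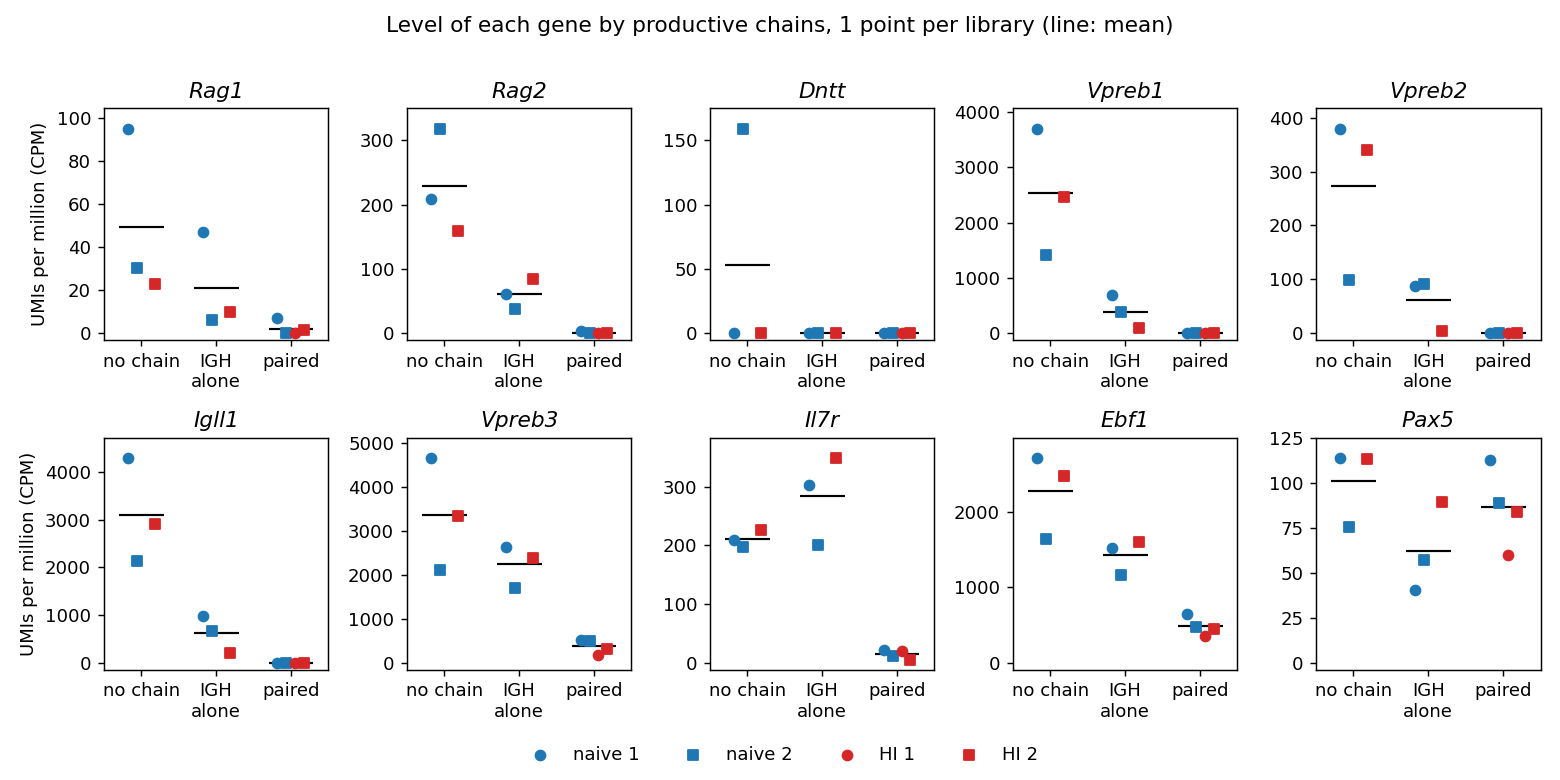
Level of each gene in CPM (vertical axis, linear, own scale per gene) by productive chains, with 1 point per library of at least 3 cells and a line at the mean of libraries. Igll1, Vpreb1, Vpreb2 and Rag2 are at or near 0 with paired chains in every library, Il7r is as high with IGH alone as with no chain, and Pax5 overlaps in all 3 classes.

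Vpreb3 stayed high through the IGH step and was lower, but not lost, with paired chains. It had a UMI in 16 of 17 cells with no chain, in 40 of 40 with IGH alone and in 155 of 220 with paired chains. The levels were 4648, 2119 and 3336 CPM with no chain and 2634, 1703 and 2380 CPM with IGH alone in naive 1, naive 2 and HI 2. With paired chains they were 519, 494, 185 and 304 CPM in naive 1, naive 2, HI 1 and HI 2. Cells with no chain and with IGH alone overlapped across libraries, and both stood above every library with paired chains. Thinned, 45.0% of cells with paired chains kept a Vpreb3 UMI against 100% with IGH alone.

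Il7r was shared by cells with no chain and with IGH alone and was rare with paired chains. It had a UMI in 14 of 17, 38 of 40 and 14 of 220 cells. Levels were 209, 197 and 227 CPM with no chain and 303, 201 and 348 CPM with IGH alone in naive 1, naive 2 and HI 2, and 21.2, 11.8, 20.04 and 4.28 CPM with paired chains in naive 1, naive 2, HI 1 and HI 2. The first 2 classes overlapped and the paired class lay below both. In HI 1, a single cell held all 8 Il7r UMIs of that class.

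The 2 transcription factors differed from each other. Ebf1 had a UMI in 94.1% of cells with no chain, 100% with IGH alone and 95.5% with paired chains, and its level was 2276 ± 562 (SD, n = 3 libraries), 1432 ± 231 (n = 3) and 483 ± 120 CPM (n = 4). Ebf1 in the lowest library of the first class (naive 2, 1642 CPM) lay just above the highest of the second (HI 2, 1598 CPM), and all 4 libraries with paired chains were lower, at 646, 474, 358 and 454 CPM. Pax5 had a UMI in 58.8%, 60.0% and 55.9% of cells, or 23.5%, 22.5% and 23.6% after thinning. Its level was 101 ± 21.9, 62.4 ± 25.0 and 86.5 ± 21.6 CPM, and the 3 classes overlapped.

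**Figure D2:**
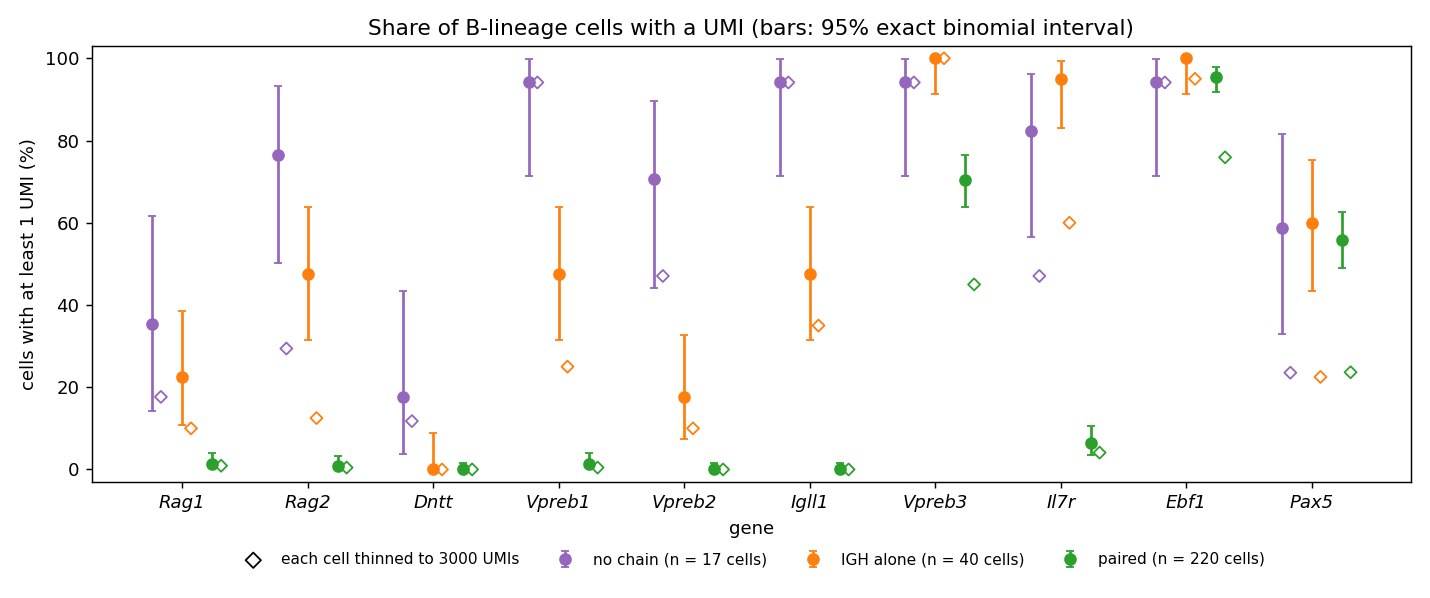
Share of B-lineage cells with at least 1 UMI of each gene (vertical axis, %) with 17 cells with no chain, 40 with IGH alone and 220 with paired chains. Filled points are all UMIs with 95% exact binomial intervals, and open diamonds are the same cells thinned to 3000 UMIs; the share of cells with Pax5 is alike in all classes, while Igll1 falls from 94.1% to 47.5% and 0%.

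Outside the B lineage the same genes were counted rarely, except Il7r. Among 21327 barcodes with no Cd79a UMI (median 10395 UMIs), Rag2, Dntt and Vpreb2 had 0 UMIs, Rag1 had 1, Pax5 had 3, Igll1 had 5, and Vpreb3 had 9. Vpreb1 had 117 UMIs in 113 of these barcodes (0.530%), of which 109 held a single UMI. Of the 113 barcodes, 100 had 10 or more C1q UMIs (0.533% of 18772 such barcodes), spread as 24, 25, 26 and 25 barcodes over naive 1, naive 2, HI 1 and HI 2. No barcode outside the B lineage had both a Vpreb1 and an Igll1 UMI. The 3 single Vpreb1 UMIs in cells with paired chains (1.36% of cells, interval 0.282 to 3.93%) cannot be told apart from this share, which their interval covers.

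Il7r was the only one of the 10 genes with a high level outside the B lineage. Barcodes without Cd79a held 2634 Il7r UMIs against 263 in the B-lineage cells. It had a UMI in 149 of 182 barcodes with at least 2 Cd3e UMIs (T cells; 369 to 382 CPM over the 4 libraries) and in 65 of 72 with at least 2 Gata3 UMIs and no Cd3e (an innate lymphoid gate; 347 to 695 CPM), both gates with less than 10 C1q UMIs. It had a UMI in 26 of 62 barcodes with Nkg7 and no Cd3e and in 0.772% of barcodes with macrophage RNA. Ebf1 had 169 UMIs in 81 barcodes without Cd79a, 40 of them in naive 1.

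Changes between classes were tested with edgeR's quasi-likelihood test on UMI sums per library and class, with a term per library and Benjamini-Hochberg adjustment over all genes tested. In paired chains against no chain, 663 of 4221 genes tested (15.7%) passed an adjusted p of 0.05, 362 higher (8.58%) and 301 lower (7.13%). Of the 10 genes, 8 passed the filter on low counts, and Rag1 and Dntt were not tested. A gene read mainly in 1 class passed the filter because of that class, so the count of 7 lower genes, beside 7.13% of all genes tested, is a description, and none of the 8 was higher. The log2 change was -2.69 for Vpreb3 (SE 0.23, adjusted p = 7.2e-07, edgeR) and -1.91 for Ebf1 (SE 0.18, adjusted p = 2.3e-06). Il7r changed by -3.93 (SE 0.45). At 4.28 to 21.2 CPM with paired chains, Il7r entered the test because of the other classes, so no p is given for it. Igll1, Vpreb1, Vpreb2 and Rag2 were at or near 0 with paired chains and were tested only because of the other classes, so the levels and ratios above stand in place of a test. Pax5 changed by 0.14 (SE 0.38, adjusted p = 0.87). Vpreb3 and Ebf1 passed in all 14 alternatives that gave a value, also without the cells with fewer than 5 Cd79a UMIs or without the barcode rich in neutrophil RNA. The count of all genes called was 373 without naive 1 and 378 without naive 2.

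With IGH alone against no chain, Igll1 and Vpreb1 were lower, and the other 6 genes tested did not pass. Here 64 of 4221 genes (1.52%) passed, 21 higher (0.498%) and 43 lower (1.02%), and 2 of the 8 genes tested were lower. The log2 change was -2.29 for Igll1 (SE 0.28, adjusted p = 0.0012, edgeR) and -2.64 for Vpreb1 (SE 0.33, adjusted p = 0.0012). Rag2 changed by -1.96 (SE 0.49, adjusted p = 0.055) and Vpreb2 by -1.72 (SE 0.59, adjusted p = 0.20), and neither passed. Rag2 passed in 4 of 14 alternatives: with RLE size factors (adjusted p = 0.049), with DESeq2 (0.049), without the filter (0.0016) and without HI 2 (0.015). It did not pass in the others, among them without naive 2 (change -1.15, adjusted p = 0.49, edgeR) and without naive 1 (-2.05, adjusted p = 0.28). Il7r changed by 0.50 (SE 0.35, adjusted p = 0.57), Vpreb3 by -0.39 (SE 0.21, adjusted p = 0.44), Ebf1 by -0.49 (SE 0.18, adjusted p = 0.20) and Pax5 by -0.45 (SE 0.43, adjusted p = 0.71). Without naive 1 the count of genes called was 11 and without naive 2 it was 26, but Igll1 and Vpreb1 passed in all 14 alternatives.

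In paired chains against IGH alone, fitted on classes of at least 10 cells (naive 2 and HI 2 alone had 10 cells with IGH alone, which left 1 residual degree of freedom), 581 of 6291 genes (9.24%) passed, 374 higher (5.95%) and 207 lower (3.29%). Of 7 genes tested 6 were lower, a count that includes 3 genes, Igll1, Vpreb1 and Rag2, at or near 0 in every paired sum, for which no p is given. Il7r changed by -4.98 (SE 0.50). At 4.28 to 21.2 CPM with paired chains, it entered this test because of the cells with IGH alone, so no p is given for it. The log2 change was -2.38 for Vpreb3 (SE 0.31, adjusted p = 0.00042, edgeR) and -1.57 for Ebf1 (SE 0.26, adjusted p = 0.0020). With 1 residual degree of freedom, these p-values lean on spread estimated over all genes tested. Pax5 changed by 0.27 (SE 0.37, adjusted p = 0.78). With classes of at least 3 cells, a choice made after seeing the data, 897 of 4221 genes (21.3%; 10.3% lower) passed.

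Within the IGH class the surrogate light chain genes were not spread evenly over cells. Of 40 cells, 21 had no Igll1 UMI, 6 had at most 6 UMIs and 13 had 10 to 59. The split at 10 UMIs was chosen after seeing the values, and the members just outside and inside it had 6 and 10 UMIs. All 13 cells with 10 or more Igll1 UMIs also had Vpreb1, at 5 to 59 UMIs, whereas 6 of the other 27 had it, at 1 UMI each. The 13 cells came as 3, 8, 0 and 2 from naive 1, naive 2, HI 1 and HI 2, and the 27 as 6, 11, 0 and 10. The 13 cells were deeper, with a median of 27503 UMIs against 9329.

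Rag1 or Rag2 had a UMI in 4 of the 13 cells with high Igll1 and in 16 of the 27 others, although the latter were shallower. Rag2 was at 40.4 CPM in the first and 75.8 CPM in the second set, and Rag1 at 5.76 and 28.4 CPM. Il7r was at 121 and 430 CPM, Vpreb3 at 1257 and 3058 CPM and Ebf1 at 957 and 1842 CPM. All 5 genes were lower per UMI in the cells with high Igll1, where Rag1 was read in 2 cells only. The split used raw Igll1 UMIs and its 13 cells were deeper, so the part of depth in these levels was not tested. The sets also drew unevenly on the libraries, with 8 of the 13 cells and 11 of the 27 from naive 2. The part of the library was not tested either. A naive 2 cell with 14 Igll1 UMIs held 7 Rag2 UMIs of the first set. Igkc, the kappa constant gene, was at 104 and 717 CPM, and the 16 listed cell cycle genes together at 4073 and 9237 CPM. Of the 17 cells with no chain, 14 held Igll1 with Rag1 or Rag2, and the single cell without Igll1 was the one of naive 2 with 162 macrophage and microglia marker UMIs.

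**Figure D3:**
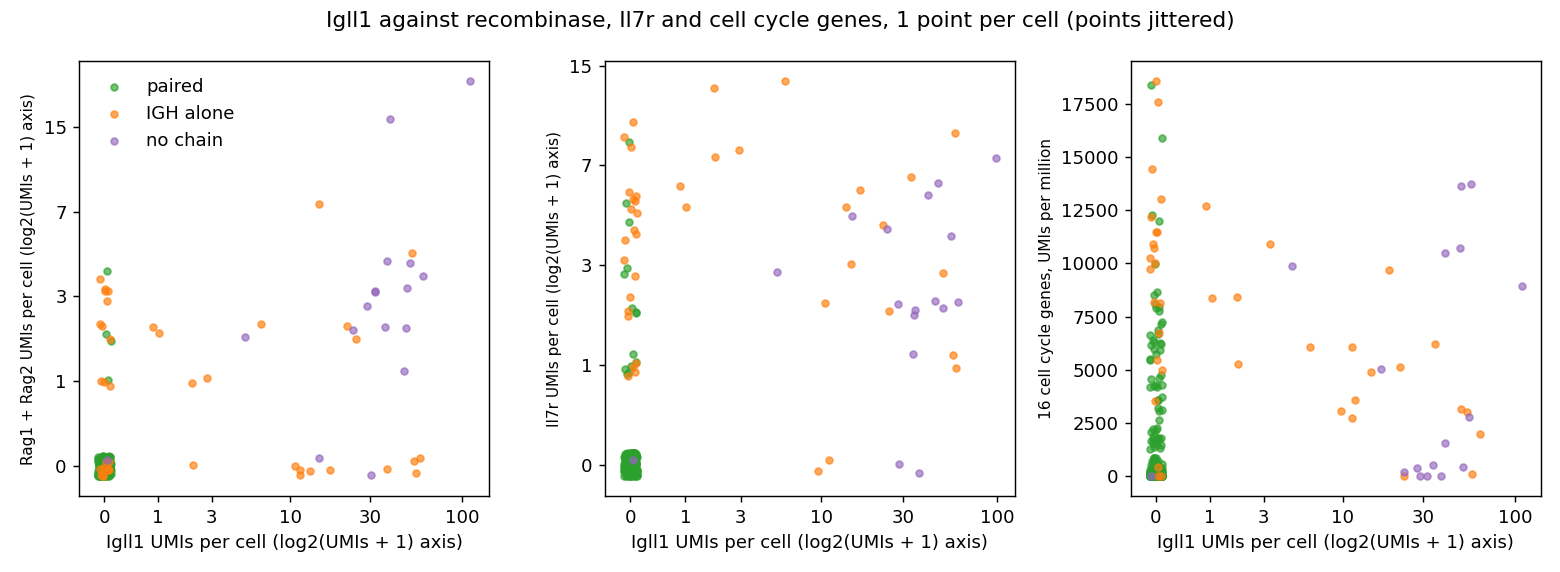
Each point is a B-lineage cell with no chain, IGH alone or paired chains. The horizontal axis is its Igll1 UMIs (log2(UMIs + 1) axis) and the vertical axes are Rag1 and Rag2 UMIs, Il7r UMIs (both log2(UMIs + 1) axes) and the CPM of 16 cell cycle genes; 11 cells with IGH alone hold Rag1 or Rag2 without Igll1, and all 220 cells with paired chains stand at 0 Igll1.

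Receptor contigs that were not productive differed in kind between the classes. Of 17 cells with no productive chain, 15 still had an IGH contig, 10 of them with a J and a constant gene and no V. In cells with IGH alone, 28 of 40 (70.0%, interval 53.5 to 83.4%) had an IGK contig of the constant gene with no V and no J, against 1 of 17 with no chain and 5 of 220 with paired chains. By library these were 8 of 9, 10 of 19 and 10 of 12 cells with IGH alone in naive 1, naive 2 and HI 2. They were 21 of the 27 cells with less than 10 Igll1 UMIs and 7 of the 13 with more. An IGL contig of a J and a constant gene with no V was found in 143 of 220 cells with paired chains (65%, interval 58.3 to 71.3%) and in 0 of 57 cells of the other 2 classes. That share was 61.2%, 65.2%, 74.1% and 65% in naive 1, naive 2, HI 1 and HI 2. Of the 220 cells, 208 had a productive IGK and 13 a productive IGL.

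The products of recombination were read in the third complementarity region (CDR3) of the productive contigs, the stretch where the V, D and J segments join. IGH gave 265 productive contigs with 251 distinct CDR3 sequences, and 5 of these were found in 2 or more libraries. IGK gave 223 contigs with 168 distinct sequences, of which 29 (17.3%) were found in 2 or more libraries. The median IGH CDR3 was 39 bases in cells with IGH alone and 36 in cells with paired chains, with ranges of 18 to 48 bases in both. The 5 recurrent IGH CDR3 sequences are shown because each was read with more than 1 V gene. Capitals mark the bases at the 3′ end that at least 50% of the distinct CDR3 sequences with the same J gene share:
IGHJ3, naive 1, naive 2 and HI 2: tgtgcaactgGGTTTGCTTACTGG
IGHJ2, naive 1 and HI 2: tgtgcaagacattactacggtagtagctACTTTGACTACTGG
IGHJ2, naive 2 and HI 2: tgtgcaactgggtactACTTTGACTACTGG
IGHJ4, HI 1 and HI 2: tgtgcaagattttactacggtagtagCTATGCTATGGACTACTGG
IGHJ3, naive 1 and HI 1: tgtgcaagtaacTGGTTTGCTTACTGG
These 5 sequences stood in 12 contigs. The first was read with IGHV1-66, IGHV3-6 and IGHV5-17, in a library each. Dntt was detected in 3 of the 279 cells, all in naive 2, and no test links Dntt to these sequences.

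Other genes of the pathway were read from lists chosen with earlier results of these data known, and log2 changes are given. In paired chains against no chain, 3 listed end-joining partners of the recombinase were tested and all were lower: Xrcc6 (log2 change -2.14, SE 0.34, adjusted p = 0.00038, edgeR), Hmgb1 (-1.52, SE 0.18, adjusted p = 1.7e-05) and Hmgb2 (-0.91, SE 0.23, adjusted p = 0.013). Xrcc6 encodes a subunit of the Ku complex that holds broken DNA ends, and the HMGB proteins bend DNA during Rag cutting. The median change of all genes tested was 0.06, and 7.13% of them passed lower and 8.58% higher. Of the 16 cell cycle genes, 12 were lower and none higher (list median -1.42), led by Cenpf (-1.98, SE 0.33), Tpx2 (-1.84, SE 0.37) and Ccnb2 (-1.83, SE 0.33). Hmgb1 and Hmgb2 are also abundant in dividing cells, and the part of the cell cycle in these changes was not tested.

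Of 9 tested genes of IL-7 receptor signalling, 4 were higher and 2 lower with paired chains than with no chain. The shares over all genes tested were 8.58% higher and 7.13% lower. Il2rg, the common chain that pairs with Il7r, rose by 2.55 (SE 0.34, adjusted p = 7.7e-05, edgeR) and Mcl1 by 1.77 (SE 0.49). Myc was near 0 with no chain, at 10.1 ± 17.5 CPM (SD, n = 3 libraries), and at 206 ± 8.62 CPM (n = 4) with paired chains. Bcl2 was at 0 with no chain and 62.6 ± 21.3 CPM (SD, n = 4 libraries) with paired chains. Socs2, an induced brake on cytokine signalling, was at 110 ± 36.2 CPM with no chain and near 0 with paired chains, at 2.04 ± 2.36 CPM. The cyclin Ccnd3 changed by -1.95 (SE 0.44). So the receptor chain Il7r and its partner Il2rg changed in opposite directions. Of 12 pre-B-cell receptor partners, 6 were higher, led by Cd22, Bank1 (2.41, SE 0.47) and Blk (2.16, SE 0.35). Cd22 was near 0 with no chain, at 12.7 ± 21.9 CPM (SD, n = 3 libraries), and at 100 ± 13.9 CPM (n = 4) with paired chains. Cd22 entered the test because of the paired class. The adaptor Blnk was lower (-0.84, SE 0.22, adjusted p = 0.016, edgeR).

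Of 18 listed transcription factors, 5 were higher and 6 lower with paired chains than with no chain. The shares over all genes tested were 8.58% higher and 7.13% lower, also for the lists that follow. Pou2f2 rose by 2.05 (SE 0.33, adjusted p = 0.00038, edgeR) and Spib by 1.71 (SE 0.33). Ikzf3 was near 0 with no chain, at 11.4 ± 10.0 CPM (SD, n = 3 libraries), and at 232 ± 51.6 CPM (n = 4) with paired chains. Sox4 was at 138 ± 32.4 CPM (SD, n = 3 libraries) with no chain and near 0 with paired chains, at 8.83 ± 2.79 CPM (n = 4). Myb changed by -2.31 (SE 0.39). Erg was at 95.9 ± 24.5 CPM (SD, n = 3 libraries) with no chain and at 0 in all 4 libraries with paired chains. Of 13 tested genes of naive B cells, 11 were higher (list median 3.13). Cd74, H2-Aa and Fcmr were at 0 with no chain and at 8495 ± 841, 846 ± 196 and 452 ± 91.6 CPM with paired chains. Of 4 tested progenitor surface genes Cd93 was lower (-2.28, SE 0.40). The 4 light chain constant genes were all higher, a description, since light chain contigs set the classes.

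With IGH alone against no chain, the changes in these lists were few. Blk rose by 1.98 (SE 0.37, adjusted p = 0.011, edgeR), Cd24a by 1.26 (SE 0.21) and Igkc by 2.61 (SE 0.44). Myc, Ikzf3 and Ms4a1 also passed, but were near 0 with no chain and entered the test because of the other classes. Their levels with no chain were 10.1 ± 17.5, 11.4 ± 10.0 and 8.85 ± 9.55 CPM (SD, n = 3 libraries). With IGH alone they were 222 ± 166, 128 ± 35.7 and 69.2 ± 26.3 CPM (n = 3). Cd74 was at 0 with no chain and 240 ± 134 CPM with IGH alone. Blnk changed by -1.39 (SE 0.25, adjusted p = 0.0084, edgeR). Erg also passed, but entered the test because of the cells with no chain. Its level was 95.9 ± 24.5 CPM with no chain and 6.74 ± 11.7 CPM with IGH alone (SD, n = 3 libraries each). No other gene of the lists passed, and the median over the 16 cell cycle genes was -0.17. With paired chains against IGH alone, 6 of 16 cell cycle genes, 3 of 7 end-joining genes and 4 of 17 transcription factors (Sox4, Myb, Irf4, Bach2) were lower. In the same comparison 3 transcription factors (Pou2f2, Klf2, Tcf4) and 12 of 14 naive B-cell genes were higher, and no cell cycle or end-joining gene was. Over all genes tested in it, 3.29% were lower and 5.95% higher. Among the naive B-cell genes, Fcer2a and Fcmr were at 0 and 1.06 CPM with IGH alone and entered the test because of the paired class.

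The genes whose level followed that of Igll1 most closely over the 6 sums of at least 10 cells were Dnajc9 (Pearson's r of log2(CPM + 10) 0.999), Cbx3 (0.997), Uhrf1 (0.992), Top2b (0.991) and Atf1 (0.990), out of 2744 genes. The 6 sums come from 4 libraries and share depth, and 4 of them, the paired sums, have Igll1 at 0, so r is a description with no test. Dnajc9 was at 325 and 254 CPM in the IGH sums of naive 2 and HI 2 and at 123 to 130 CPM in the 4 paired sums. For Pax5 they were 2810474O19Rik, Dgka, Dnajc7, Tacc1 and Rsbn1l (0.994 to 0.966), over a Pax5 range of 0.868 on that scale. For Rag1 they were Cst3, Yeats4, Selk, Rpl7 and Tpm4 (0.969 to 0.947), over a range of 0.997 on that scale that rests on few UMIs.

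The study's comparison of HI with naive pups was made over all B-lineage cells and within cells with paired chains. B-lineage cells were 1.68%, 1.73%, 0.689% and 1.36% of kept barcodes in naive 1, naive 2, HI 1 and HI 2. Over all B-lineage cells, Igll1 was at 408 and 404 CPM in naive 1 and naive 2 and at 0 and 222 CPM in HI 1 and HI 2. Vpreb1 was at 330, 255, 2.47 and 158 CPM and Vpreb3 at 1103, 985, 223 and 919 CPM in the same order. For these 3 genes both HI libraries lay below both naive libraries, with HI 1 far below HI 2. The same held for Vpreb2 and for Rag1, which was too low to be tested. Of the 8 genes tested, 4 thus had both HI libraries below both naive libraries, as did 18.2% of all 7216 genes tested, and none had both above, as did 11.6% (29.7% in either direction).

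Ebf1 was at 910, 782, 363 and 811 CPM, Il7r at 78.0, 81.0, 22.3 and 89.5 CPM and Pax5 at 101, 79.3, 59.3 and 86.3 CPM, and for these HI 2 lay within or above the naive range. Of the 8 genes tested 0 passed with edgeR, 0 had an unadjusted p under 0.05 and 0 passed with DESeq2. Of all 7216 genes 3 passed (0.0416%), each a V gene of immunoglobulin kappa and lower in HI. Igll1 changed by -1.74 (SE 0.95, adjusted p = 0.9998, edgeR), Vpreb1 by -1.71 (SE 0.83, adjusted p = 0.9998) and Vpreb3 by -0.82 (SE 0.48, adjusted p = 0.9998). The share of cells with no chain or IGH alone moved with these levels, at 18.3%, 29.0%, 0% and 19.7%, and its part was not tested in this comparison. When HI 2 was left out, HI 1 with its 28 cells stood alone and was assumed to vary like the naive libraries, so no p is given. The changes were then -11.4 for Igll1, -6.74 for Vpreb1, -7.90 for Vpreb2 and -2.16 for Vpreb3. HI 1 held 0 UMIs of Igll1 and Vpreb2 and 1 UMI of Vpreb1, and these genes entered that test because of the naive libraries. Without the filter on low counts, Igll1, Vpreb1 and Vpreb3 passed (adjusted p = 1.6e-08, 1.4e-07 and 0.015).

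Within cells with paired chains, where the class was held fixed, Vpreb3 was at 519 and 494 CPM in the naive libraries and 185 and 304 CPM in the HI libraries. Its share of cells with a UMI was 71.6%, 75.8%, 48.1% and 73.3% in naive 1, naive 2, HI 1 and HI 2. The change was -1.02 (SE 0.23, unadjusted p = 0.0013, adjusted p = 0.39, edgeR), where 9 of 6535 genes (0.138%; 0.122% lower) passed. Ebf1 was at 646, 474, 358 and 454 CPM (change -0.45, SE 0.21, adjusted p = 0.90) and Pax5 at 113, 89.0, 60.1 and 84.1 CPM (change -0.45, SE 0.26, adjusted p = 0.90). Both HI libraries lay below both naive libraries for these 3 of the 4 genes tested, as they did for 20% of all genes tested (35.4% in either direction). Vpreb1, which was not tested here, was at 1.41, 0, 2.51 and 1.43 CPM, a single UMI in each of naive 1, HI 1 and HI 2. Of the 4 genes tested 0 passed with edgeR, 1 (Vpreb3) had an unadjusted p under 0.05, and 0 passed with DESeq2 (Vpreb3, adjusted p = 0.064). Il7r, at 21.2, 11.8, 20.04 and 4.28 CPM, changed by -0.65 (SE 0.69, adjusted p = 0.95). HI 1 had 27 such cells, among them the cell with 8750 neutrophil UMIs, and 584 CPM of macrophage and microglia genes against 82.5 to 120 CPM in the other libraries. Without barcodes with 10 or more UMIs of the neutrophil gene S100a8, Vpreb3 changed by -0.95 (adjusted p = 0.43, edgeR) and Ebf1 by -0.38 (adjusted p = 0.91). The part of the macrophage and microglia RNA was not tested. Without HI 2, where HI 1 stood alone and no p is given, Vpreb3 changed by -1.38. Without the filter on low counts, Vpreb3 passed (adjusted p = 0.00077, edgeR).

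**Figure D4:**
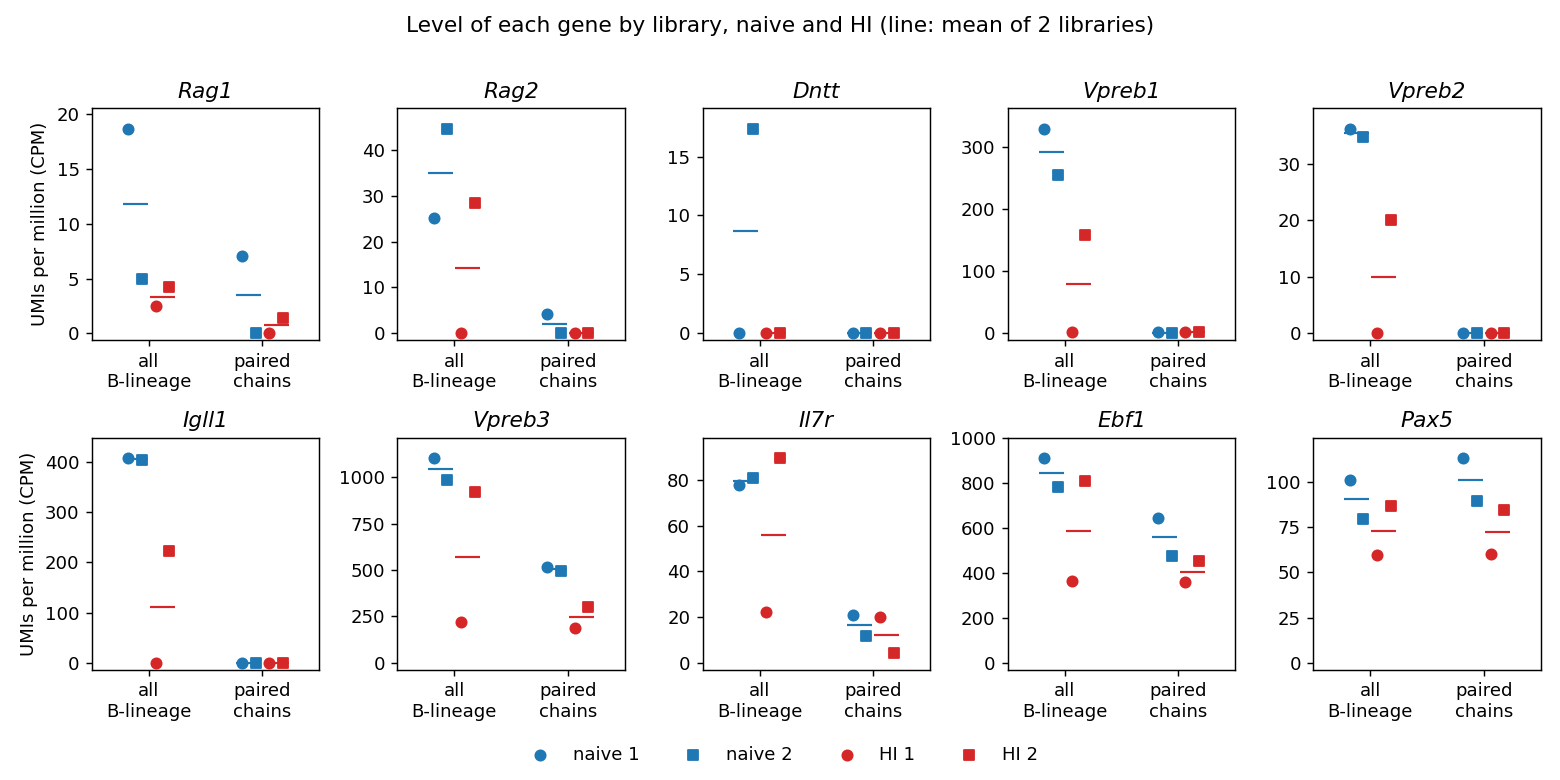
Level of each gene in CPM (vertical axis, linear, own scale per gene) over all B-lineage cells and over cells with paired chains, with 1 point per library and a line at the mean of 2 libraries. HI 1, which had no cell with IGH alone or without a chain, is lowest for Igll1, Vpreb1 and Vpreb3 over all B-lineage cells, and HI 2 lies near the naive libraries for Ebf1, Il7r and Pax5.

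A light chain without IGH was found in 2 cells. The cell in HI 2 held 40 Igll1, 21 Vpreb1, 3 Vpreb2 and 3 Rag2 UMIs among 3697 UMIs. The cell in HI 1 held 1 Rag1 UMI, 16 Vpreb3 UMIs and none of the surrogate light chain genes. Of the 26 barcodes set apart for C1q UMIs, 19 had paired chains, 5 had IGH alone and 2 had no chain, and an Igll1 UMI was found in 2 and an Il7r UMI in 8 of them.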

How the data were processed

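The 4 gene expression libraries hold UMI counts of genes in barcodes, as deposited and not normalized, and the 4 B-cell receptor libraries hold deposited contigs with counts of UMIs and reads. Per the labels' protocols the libraries were made with a 10x Genomics 5′ kit and its V(D)J enrichment. Cell Ranger 2.2.0, Seurat and the builds mm10 and GRCm38 are named in the submitters' processing notes, and the step that used each is not given in the sources used here. The T-cell receptor libraries were not used here. The 10 genes and the gene lists were chosen with earlier results of these data known.

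Kept barcodes had 200 or more detected genes, and mitochondrial genes made up no more than 10% of their UMIs. Those with at least 2 Cd79a UMIs were B-lineage cells, and those with 10 or more C1q UMIs among them were set apart as mixed. No doublet caller was used otherwise, and Scrublet (scanpy 1.11.5) was an alternative. UMIs were summed per library and class, and tested with edgeR 4.0.16 (TMM, filterByExpr, quasi-likelihood test, Benjamini-Hochberg at 0.05), with DESeq2 1.42.0 as an alternative. Classes of at least 10 cells per library had been planned, but no library had 10 cells with no chain, so comparisons with that class used at least 3 cells, set after seeing the data. SE is the log2 change over the square root of F. The fits were tested on simulated data. Other genes of a list are named where 4 or fewer passed in a direction, and otherwise the 3 with the largest change. Counts came from 910328, 1209982, 404461 and 949807 UMIs of B-lineage cells in naive 1, naive 2, HI 1 and HI 2. The library is the replicate. Promoter windows are from RefSeq (GRCm38.p6), and all 10 genes matched by symbol.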

Additional observations from a re-analysis of the deposited data

Results flagged for a closer look

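Vpreb1 gave a signal outside the B lineage: 100 of 18772 barcodes with 10 or more C1q UMIs and no Cd79a UMI held it (0.533%, 95% exact interval 0.434 to 0.648%). Most held a single UMI (96 of 100), and the level was 0.408 to 0.624 CPM over the 4 libraries. Outside the B lineage there were 0.0427 Igll1 UMIs per Vpreb1 UMI, against 1.41 in the B-lineage cells, and no barcode held both genes. These barcodes belong to no comparison of the report.

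In the receptor libraries, contigs that were not productive carried a signal that the classes did not use. An IGK contig of the constant gene with no V and no J was found in 28 of 40 cells with IGH alone, against 1 of 17 with no chain. An IGL contig of a J and a constant gene with no V was found in 143 of 220 cells with paired chains, and in 0 of 40 cells with IGH alone and 0 of 17 with no chain. Whether these differ between HI and naive pups was not tested.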

How the results depend on the processing

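In paired chains against no chain, 663 genes passed, 1038 with no filter on low counts, and 373 to 650 with 1 library left out. In IGH alone against no chain, 64 passed, 27 with classes of at least 5 cells, 221 with no filter, 29 with C1q barcodes kept, 32 with no library term, and 11 to 78 with 1 library left out. In paired chains against IGH alone, 581 passed, 897 with classes of at least 3 cells, 194 with DESeq2, 939 with no library term, and 602 to 634 without naive 1 or HI 1. In HI against naive over B-lineage cells, 3 passed, 146 with no filter, 12 with DESeq2, 0 with C1q barcodes kept, 8 without the cell rich in S100a8, and 21 to 100 with 1 library left out. Within paired chains, 9 passed, 158 with no filter, 1 with C1q barcodes kept, and 17 to 145 with 1 library left out. The replicate number as a block gave 14 and 16 genes in these HI comparisons and changed no call among the 10 genes. Same-numbered libraries share only a number: their deviations correlated at -0.01 over B-lineage cells and -0.04 within paired chains.

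Of the alternatives for the 10 genes, 112 of 112 kept direction and call in paired chains against no chain, 107 of 112 in IGH alone against no chain and 95 of 97 in paired chains against IGH alone. Those with paired chains include Igll1, Vpreb1, Vpreb2 and Rag2, at or near 0 there, whose calls are no sign of stability. The same holds for Il7r in paired chains against no chain and against IGH alone, where it entered the test because of the other classes. Igll1, Vpreb1 and Vpreb3 passed in HI over B-lineage cells with no filter (adjusted p = 1.6e-08, 1.4e-07 and 0.015, edgeR). Pax5 was higher in paired chains than with IGH alone (adjusted p = 0.049, edgeR) with classes of at least 3 cells and HI 2 left out. Il7r in HI over B-lineage cells changed by 0.19 without HI 1 and -1.76 without HI 2, and within paired chains by -1.89 and 0.35. The cause of these shifts was not tested. Where any contig counted as a chain, the share with no chain was 0%, 2.15%, 0% and 0% in naive 1, naive 2, HI 1 and HI 2. No value could be fitted with at least 10 cells for comparisons with no chain, with at least 20 cells for any class comparison, or for paired chains against IGH alone without naive 2 or HI 2. The 3-cell and 5-cell classes and the S100a8 setting were chosen after seeing the data. The cells with no chain are 17 in all, and Rag1 and Dntt had too few UMIs to be tested.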
